A study of Mus musculus with 6 samples.

Results

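The genes described here are the Rag GTPase genes Rragd, Rragc and Rraga, the folliculin gene Flcn with its partner genes Fnip1 and Fnip2, the transcription factor genes Tfeb and Tfe3, and Sesn2 and Ddit4, which encode inhibitors of the growth kinase complex mTORC1. The set was chosen from measured values, because Rragd was about 12-fold higher in cells with guides against pyruvate carboxylase than in control cells, and the other genes were added for their place in the same pathway. All 10 were found by gene symbol among the 16540 genes of the deposited table, and all 10 passed the filter on low values. Every difference between these cells and the control is therefore given for the 10 genes as a description, with no test, and tests are kept for the comparison of the PC guides with each other and for genes outside the set. The lists of genes outside the set were also chosen with earlier results of these data known. Their tests apply to single genes, and their counts are descriptions.

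Rag GTPases work as pairs on the surface of the lysosome, with RagA or RagB bound to RagC or RagD. When amino acids are plentiful, the pair recruits mTORC1 and holds it where the small GTPase Rheb can switch it on. Folliculin, with FNIP1 or FNIP2, is the GTPase-activating protein for RagC and RagD, and in that state the Rag pair also lets mTORC1 phosphorylate TFEB and TFE3 and keep them out of the nucleus. TFEB and TFE3 drive genes of lysosomes and autophagy, and in mammals RRAGD, FLCN and FNIP genes are known among their targets. Sestrin 2 binds the GATOR2 complex when leucine is low, and DDIT4, also called REDD1, acts through the TSC complex. Both of these inhibitors are known as stress-induced proteins.

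The cells were NIH-3T3, an established line of mouse embryonic fibroblasts, made to express Cas9 and 1 guide RNA by lentivirus, selected with puromycin at 2 ug/mL and kept as uncloned pools. The guides PC sg2 (n = 2 libraries) and PC sg5 (n = 2) are named after pyruvate carboxylase, whose gene is Pcx, and the guide R26 sg1, named after the Rosa26 locus, was the control (n = 2). All groups carried Cas9 and a guide and spent 48 h with glutamine lowered to 0.2 mM and serum (10%) that had been dialyzed, so the control was short of glutamine too and no library of cells in full medium was analysed here. No label tells whether replicate libraries were grown as separate cultures, and p-values here cover only the spread among libraries, which may be technical.

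The shallowest library, PC sg5 replicate 2, held 22895172 recovered reads and the deepest, control replicate 2, held 71710049. Pcx had 316 and 375 normalised counts with PC sg2, 713 and 716 with PC sg5, and 2914 and 3015 in the control. All 7 fibroblast markers were listed, with summed levels of 439631 to 452059 normalised counts in the PC libraries and 1015990 to 1055930 in the control libraries, and all 7 fell by limma. Of 7 leukocyte and macrophage markers 3 were listed, with sums of 187 to 257 in the PC libraries and 418 to 482 in the control, of 7 epithelial markers 1 was listed (8.55 to 19.1 and 57.4 to 58.7), and of 5 endothelial markers 2 were listed (32.4 to 53.0 and 36.3 to 45.5). The leukocyte marker Ptprc, the epithelial marker Epcam and the endothelial marker Cdh5 were not among the listed genes. The part of the lower fibroblast markers in the results below was not tested.

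Promoter sequences from RefSeq (250 bases before to 50 bases after a transcription start) were matched for all 10 genes, with 13 windows in all, since Tfeb had 3 and Tfe3 had 2. Of these, 3 are printed: that of Rragd, the gene with the highest ratio, and those of Rragc and Fnip1, the genes of the set whose window holds the letters CACGTG, the core of the E-box that TFEB and TFE3 are known to bind. Capitals mark CACGTG, which reads the same on both strands.
Rragd promoter, GRCm38.p6, chr4:32982748-32983047, plus strand: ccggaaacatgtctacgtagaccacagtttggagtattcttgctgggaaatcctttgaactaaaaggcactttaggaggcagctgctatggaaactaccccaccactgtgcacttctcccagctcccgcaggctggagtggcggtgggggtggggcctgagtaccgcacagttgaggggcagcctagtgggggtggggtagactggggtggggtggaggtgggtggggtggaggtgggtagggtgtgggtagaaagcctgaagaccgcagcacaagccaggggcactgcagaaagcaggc
Rragc promoter, GRCm38.p6, chr4:123917183-123917482, plus strand: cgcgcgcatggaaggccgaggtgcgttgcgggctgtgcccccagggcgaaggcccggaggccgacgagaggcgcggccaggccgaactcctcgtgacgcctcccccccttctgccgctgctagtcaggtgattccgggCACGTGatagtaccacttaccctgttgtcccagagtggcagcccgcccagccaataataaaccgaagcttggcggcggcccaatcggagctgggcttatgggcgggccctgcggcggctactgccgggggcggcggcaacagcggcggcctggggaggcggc
Fnip1 promoter, GRCm38.p6, chr11:54437929-54438228, plus strand: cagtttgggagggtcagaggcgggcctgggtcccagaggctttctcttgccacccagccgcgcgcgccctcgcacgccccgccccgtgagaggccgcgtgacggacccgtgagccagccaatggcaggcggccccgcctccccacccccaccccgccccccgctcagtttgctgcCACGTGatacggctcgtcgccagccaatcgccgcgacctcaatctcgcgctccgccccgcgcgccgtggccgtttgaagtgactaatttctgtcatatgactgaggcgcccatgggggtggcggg
The match began 112 bases before the RefSeq start in Rragc and 75 bases before it in Fnip1. CACGTG was in a window of 2 of the 10 genes, and in a window of 8.09% of the 27025 genes of the RefSeq table. Counted by window, it was in 2 of 13, and in 7.15% of all 32851 promoters. The longer letters TCACGTGA, which contain CACGTG, were in none of the 13 windows and in 0.974% of all promoters. TGATGNAA, a form of the element bound by ATF4 with C/EBP factors, was searched on both strands and was in none of the 13 windows and in 3.97% of all promoters. A match is a description of letters in a window of 300 bases and says nothing of binding.

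Across the set, 7 genes were above both controls in all 4 PC libraries, 2 were below both and 1 overlapped. Among all genes tested, 36.6% were above both controls in all 4 PC libraries and 36.6% were below. In the limma comparison of both guides with control, 67.9% of 16526 genes were past an adjusted p of 0.05 (34.3% higher and 33.6% lower), a background against which the 10 genes cannot be read as a test, since they were chosen on this comparison. Leaving Rragd aside, the 6 genes that were higher had ratios of means from 1.45 to 1.90. The median log2 difference of the 10 genes was 0.63, and that of all genes tested was -0.01.

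Of the Rag genes, Rragd stood far apart from Rragc and Rraga in the size of its difference, and all 3 were higher in every PC library than in both controls. Rragd (ENSMUSG00000028278) is a protein-coding gene on the plus strand of chromosome 4, at 32983037 to 33022180 in GRCm38. It had 334 and 313 normalised counts with PC sg2, 294 and 329 with PC sg5, and 27.6 and 23.9 in the control. These values came from 429 and 294 recovered reads with PC sg2, 291 and 154 with PC sg5, and 37 and 33 in the control. The exact Poisson 95% intervals, which cover counting error only, ran from 261.5 to 385.5 normalised counts over the 4 PC libraries at their widest and from 16.5 to 38.0 over the 2 controls. The 4 PC libraries lay close together, and none came near the controls. Mean levels were 318 ± 18.0 normalised counts (SD, n = 4) in the PC libraries and 25.8 ± 2.59 (SD, n = 2) in the control, a ratio of 12.3. The difference on the log2(normalised count + 1) scale, a scale that understates changes of low genes, was 3.58 ± 0.16 (SE), the 23rd highest of 16526 genes tested. In bulk RNA, a change in the share of cells that express a gene and a change in its RNA per cell cannot be told apart.

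Rragc, which encodes RagC, the close relative of RagD, had 10236 and 10810 normalised counts with PC sg2, 10602 and 10499 with PC sg5, and 6460 and 6847 in the control. Rraga, whose product RagA is its partner in the pair, had 5471 and 5689 with PC sg2, 5629 and 5528 with PC sg5, and 3803 and 3903 in the control. For both genes the groups were well separated and the PC guides overlapped. The ratio of means was 1.58 for Rragc (10537 ± 238, SD, n = 4, in the PC libraries and 6653 ± 274, SD, n = 2, in the control) and 1.45 for Rraga (5579 ± 98.2 and 3853 ± 70.2). Overlap with the exons of 4930535I16Rik covers 7.90% of the exon bases of Rragc, and reads there cannot be told apart without strand. Rragb was not analysed here.

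Despite its ratio, Rragd remained a minor transcript beside Rragc. Per kb of exon, Rragd had a level of 61.4 normalised counts per kb in the PC libraries and 4.98 in the control, against 3154 and 1991 for Rragc in the same groups. Rragd made up 2.07% and 1.83% of the summed per-kb level of Rragc and Rragd with PC sg2, 1.76% and 1.98% with PC sg5, and 0.275% and 0.225% in the control. The share was thus higher in every PC library, but most of the higher RagC and RagD total (3215 ± 69.2 per kb in the PC libraries, SD, n = 4, and 1996 ± 81.4 in the control, SD, n = 2) was Rragc.

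**Figure D1:**
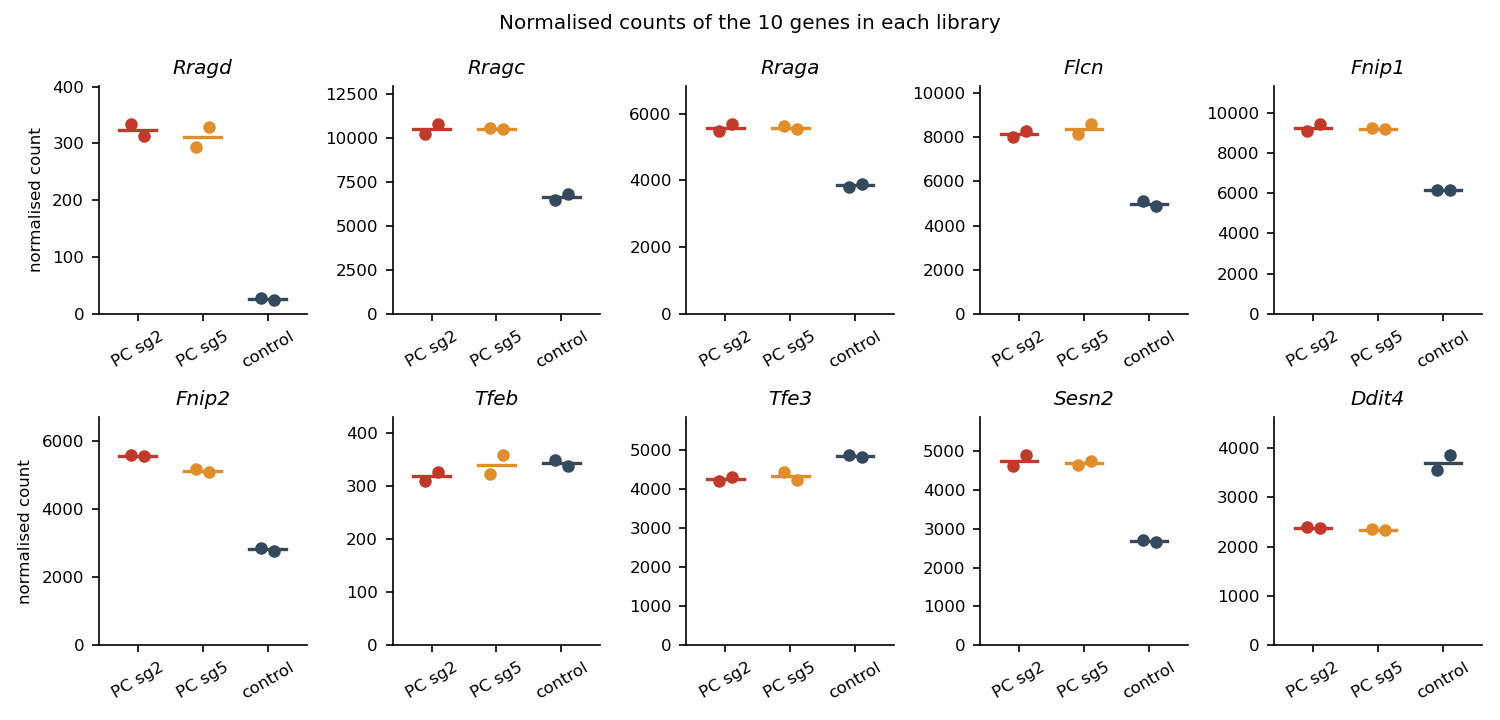
Normalised counts (y axis, from 0, one scale per gene) of the 10 genes in PC sg2, PC sg5 and control libraries (x axis). Points are libraries and lines are the means of 2 libraries. Rragd lies at 294 to 334 in the PC libraries and at 23.9 and 27.6 in the control, and Ddit4 and Tfe3 are lower in the PC libraries.

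The 3 genes of the folliculin complex were all higher in the PC libraries. Flcn, the folliculin gene, had 8015 and 8269 normalised counts with PC sg2, 8126 and 8599 with PC sg5, and 5100 and 4872 in the control. Fnip1 had 9084 and 9440 with PC sg2, 9219 and 9172 with PC sg5, and 6141 and 6137 in the control. Fnip2 had 5568 and 5548 with PC sg2, 5182 and 5070 with PC sg5, and 2858 and 2772 in the control. No PC library of these genes overlapped a control, and only for Fnip2 were the libraries of PC sg5 and PC sg2 also apart. The ratio of PC to control means was 1.66 for Flcn, 1.50 for Fnip1 and 1.90 for Fnip2. The log2 differences were 0.73 ± 0.03 (SE), 0.59 ± 0.03 and 0.92 ± 0.03 in that order.

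Fnip2 took a larger share of the FNIP total in every PC library than in the controls. Per kb of exon, Fnip2 was 34.3% and 33.3% of the sum of Fnip1 and Fnip2 with PC sg2, 32.4% and 32.0% with PC sg5, and 28.4% and 27.8% in the control. The summed level of both genes was 1935 ± 41.1 normalised counts per kb (SD, n = 4) in the PC libraries and 1199 ± 7.66 (SD, n = 2) in the control, a ratio of 1.61. The total of Rragc and Rragd had the same ratio to 3 digits, 1.61.

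The transcription factor genes did not share this pattern. Tfeb had 309 and 326 normalised counts with PC sg2, 323 and 357 with PC sg5, and 349 and 338 in the control. It was the only gene of the set whose PC and control libraries overlapped, and its log2 difference of -0.06 ± 0.10 (SE) turned to 0.10 under quantile normalisation. Tfe3 had 4199 and 4298 with PC sg2, 4426 and 4217 with PC sg5, and 4852 and 4823 in the control. All 4 PC libraries were below both controls, by a small margin, with a mean of 4285 ± 103 (SD, n = 4) in the PC libraries and 4838 ± 20.5 (SD, n = 2) in the control, a log2 difference of -0.18 ± 0.04 (SE).

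Mitf, a related factor outside the set, fell as well. It averaged 391 ± 30.5 normalised counts in the PC libraries (SD, n = 4) and 501 ± 11.9 in the control (SD, n = 2), a log2 fold change of -0.36 ± 0.09 (SE) and an adjusted p of 0.00165 by limma. Tfe3 was the main member of the family by level per kb, at 79.3 ± 0.780% of the sum of Tfeb, Tfe3 and Mitf in the PC libraries (SD, n = 4) and 78.7 ± 0.135% in the control (SD, n = 2). The summed level was 584 ± 15.7 normalised counts per kb in the PC libraries and 664 ± 1.68 in the control. Tfec was not analysed here.

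The mTORC1 inhibitors of the set went in opposite directions. Sesn2 had 4596 and 4875 normalised counts with PC sg2, 4631 and 4737 with PC sg5, and 2708 and 2648 in the control, all PC libraries being higher. Ddit4 had 2390 and 2369 with PC sg2, 2350 and 2338 with PC sg5, and 3548 and 3842 in the control, all PC libraries being lower. The ratio of PC to control means was 1.76 for Sesn2 and 0.639 for Ddit4, and the log2 differences were 0.81 ± 0.04 (SE) and -0.64 ± 0.04. The spread between libraries was small beside both differences, with SDs of 125 in the PC libraries and 42.2 in the control for Sesn2, and of 22.5 and 208 for Ddit4.

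The other sestrin genes and the relative of Ddit4 all fell. Sesn3 averaged 5065 ± 347 normalised counts in the PC libraries (SD, n = 4) and 15488 ± 36.1 in the control (SD, n = 2), a log2 fold change of -1.61 ± 0.03 (SE) with a limma adjusted p of 2.58e-20. Sesn1 averaged 659 ± 88.3 and 1856 ± 59.4 in the same groups. Its log2 fold change was -1.50 ± 0.08, with an adjusted p of 1.78e-13 by limma. Ddit4l, which encodes the DDIT4 relative REDD2, averaged 98.9 ± 9.98 and 373 ± 6.64, a log2 fold change of -1.91 ± 0.16 with an adjusted p of 3.76e-10 by limma.

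By level per kb of exon, Sesn2 was the leading sestrin gene in the PC libraries and Sesn3 in the control. Before division by exon length, Sesn3 had the higher mean in the PC libraries too. It was 5065 normalised counts, against 4710 for Sesn2, with overlap between libraries. Per kb of exon, Sesn2 was 71.6% and 74.6% of the summed sestrin level with PC sg2, 72.5% and 73.8% with PC sg5, and 34.6% and 33.9% in the control, where Sesn3 was 45.1% and 45.0%. The summed level was 1853 ± 18.5 normalised counts per kb in the PC libraries (SD, n = 4) and 2251 ± 0.416 in the control (SD, n = 2), a ratio of 0.823. Ddit4 made up 97.5 ± 0.257% of Ddit4 and Ddit4l per kb in the PC libraries and 94.3 ± 0.207% in the control, and that pair's summed level had a ratio of 0.618.

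**Figure D2:**
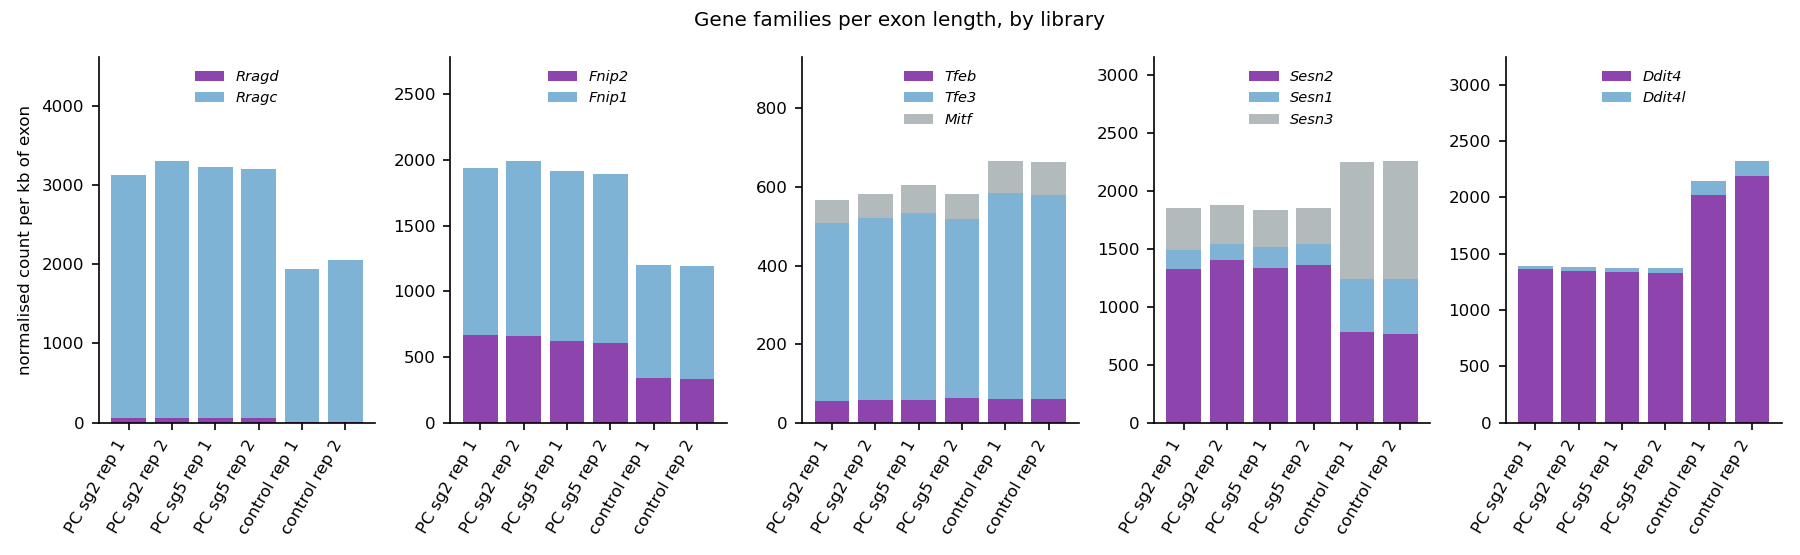
Stacked levels per exon length (y axis, normalised count per kb, from 0) of 5 gene families in each library (x axis). Colours are genes. Sesn2 makes up 71.6% to 74.6% of the sestrin sum in the PC libraries and 33.9% and 34.6% in the control, and Rragd is at most 2.07% of its pair.

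Ordered by level per kb of exon, the 10 genes in the PC libraries were Rraga (3448), Rragc (3154), Flcn (1909), Sesn2 (1355), Ddit4 (1346), Fnip1 (1296), Fnip2 (639), Tfe3 (463), Rragd (61.4) and Tfeb (58.0), in normalised counts per kb. In that order Sesn2 overlapped Ddit4 and Rragd overlapped Tfeb between libraries, while the other neighbours did not overlap. In the control, Ddit4 (2106 per kb) came second after Rraga (2381) and overlapped Rragc (1991), and Rragd (4.98) came last, below Tfeb (60.6) in both libraries. Each gene's own exon length enters these levels, so they depend on which transcripts the cells make.

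By position, 4 of the 10 genes (Rragd, Rraga, Rragc and Sesn2) lie on mouse chromosome 4, which holds 5.9% of the genes of the table that have a position. Flcn and Fnip1 share chromosome 11, and Fnip2, Ddit4, Tfeb and Tfe3 lie on chromosomes 3, 10, 17 and X. In GRCm38, Rragc spans 123917446 to 123936997 and Rraga 86575668 to 86577285 on the plus strand of chromosome 4, and Sesn2 spans 132492032 to 132510501 on its minus strand. Flcn spans 59791408 to 59810016 (minus strand) and Fnip1 54438199 to 54518235 (plus strand) on chromosome 11. Fnip2 lies at 79455974 to 79567796 on chromosome 3 (minus strand), Ddit4 at 59949669 to 59951834 on chromosome 10 (minus strand), Tfeb at 47737030 to 47792419 on chromosome 17 (plus strand) and Tfe3 at 7762560 to 7775202 on chromosome X (plus strand). All 10 are annotated as protein coding, and none but Rragc shares exon bases with another annotated gene.

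The difference between PC sg5 and PC sg2 was not part of how the genes were chosen. It is estimated from the 4 PC libraries, while its error also draws on the spread between the controls, since all 3 groups share 1 model. Pcx itself differed between these guides, with a log2 difference of 1.05 and a limma adjusted p of 6.60e-07, higher with PC sg5, whereas 0 of the 10 genes passed an adjusted p of 0.05 in limma. Over all genes 0.242% passed, 40 of 16526. Without the intensity trend no gene passed, Pcx included (adjusted p = 0.328, limma), with 1241 at an unadjusted p under 0.05, and edgeR called 68. At an unadjusted limma p under 0.05, with the trend, there was 1 gene of the 10, Fnip2, beside 1760 of all 16526 genes. The libraries of PC sg5 and PC sg2 did not overlap for 2 of the 10, Fnip2 and Ddit4, and for 39.3% of all genes tested. The edgeR quasi-likelihood test and DESeq2 on recovered reads also called 0 of the 10, with an adjusted p that DESeq2 left as NA for 8 of them. The count over all genes was 25 and 26 without control replicate 1 and 2, 14 and 10 without PC sg2 replicate 1 and 2, 216 and 42 without PC sg5 replicate 1 and 2, and in each of these fits 0 of the 10 genes were past the threshold.

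Fnip2 was lower with PC sg5, the log2 difference from PC sg2 being -0.12 (95% confidence interval -0.20 to -0.03), with an unadjusted limma p of 0.00866 and an adjusted p of 0.281, and both PC sg5 libraries were below both PC sg2 libraries. For Ddit4 the gap between the guides was small beside its difference from the control. For Rragd the log2 difference was -0.05 with an interval of -0.44 to 0.34, so the data allow a ratio of PC sg5 to PC sg2 between 0.735 and 1.26. For Tfeb the interval was -0.16 to 0.35. The intervals were narrower for genes with more reads, at -0.07 to 0.08 for Rragc, -0.08 to 0.08 for Rraga, -0.04 to 0.12 for Flcn, -0.08 to 0.06 for Fnip1, -0.06 to 0.11 for Tfe3, -0.11 to 0.07 for Sesn2 and -0.12 to 0.08 for Ddit4. A p that misses the threshold does not show that the guides act alike, and these intervals give the sizes that remain possible.

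**Figure D3:**
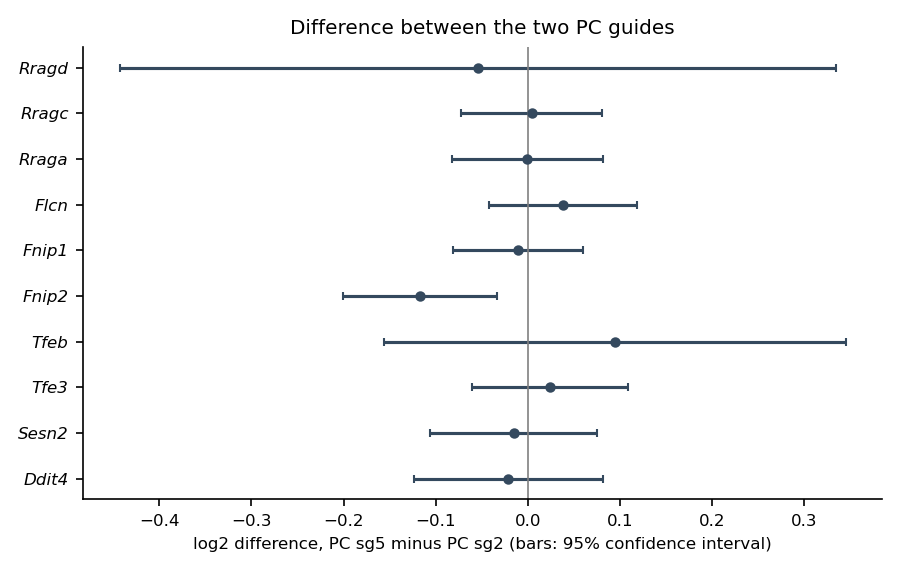
Log2 difference between PC sg5 and PC sg2 (x axis, log2 of normalised count + 1) for each of the 10 genes (y axis). Points are estimates from 2 libraries a guide and bars are 95% confidence intervals. All intervals but that of Fnip2 include 0, and that of Rragd is the widest, at -0.44 to 0.34.

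Because the PC guides share their control libraries, their values against the control are given side by side. The log2 difference from control was 3.60 ± 0.19 (SE) with PC sg2 and 3.55 ± 0.19 with PC sg5 for Rragd, 0.98 ± 0.04 and 0.86 ± 0.04 for Fnip2, 0.82 ± 0.04 and 0.81 ± 0.04 for Sesn2, and -0.63 ± 0.05 and -0.66 ± 0.05 for Ddit4. The plot of each guide gives the same for all 10 genes.

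**Figure D4:**
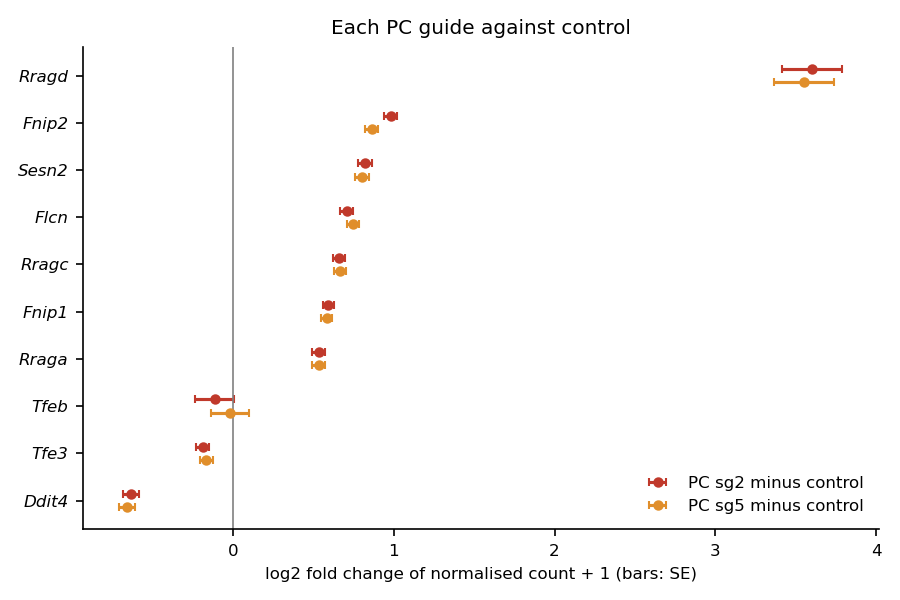
Log2 fold change against control (x axis, log2 of normalised count + 1) of the 10 genes (y axis) with PC sg2 and with PC sg5. Points are limma estimates from 2 libraries a guide and the same 2 controls, and bars are standard errors. Rragd lies at 3.60 and 3.55, and Tfe3, Tfeb and Ddit4 lie below 0.

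Around the 10 genes, the rest of the nutrient-sensing pathway moved in both directions. Of 50 symbols listed for it, among them the older symbols Gatsl3 and Gatsl2 of Castor1 and Castor2, 46 were found and tested. By limma, 16 rose, 19 fell and 11 did not pass, or 76.1% called, beside 67.9% of all genes tested. Their median log2 fold change was -0.08, against -0.01 for all genes tested. No set test was made, and the lists were chosen with earlier results of these data known. The counts of single lists below stand beside 34.3% higher and 33.6% lower among all genes tested, and such small lists can differ from these shares by a few genes. Beside the genes with the largest changes of each list, other genes of the lists are named below with their log2 fold changes, a choice made with their values known. For PC sg5 against PC sg2, 0 of the 68 pathway and target genes passed in limma, beside 0.242% of all genes tested. Sesn3, at an adjusted p of 0.103 in limma, passed with DESeq2 (adjusted p = 0.0158). It also passed in limma with a block for the replicate number (adjusted p = 0.0159). An unadjusted limma p under 0.05 was found for 8 of the 68, beside 1760 of all 16526 genes tested.

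The complexes that hold the Rag pair on the lysosome or act on it changed by less than 2-fold. In the list of Ragulator, the scaffold of the Rag GTPases, and the lysosomal arginine sensor Slc38a9, 4 of 6 genes rose and 1 fell, with Lamtor3 at 0.53 ± 0.04 (SE), Slc38a9 at 0.28 ± 0.06 and Lamtor5 at 0.27 ± 0.05. Lamtor2 (0.18) also rose, Lamtor4 (-0.20) fell and Lamtor1 (0.01, with 18.7% shared exon bases) did not pass. In GATOR1, the GTPase-activating complex for RagA and RagB, and KICSTOR, its lysosomal anchor, genes changed in both directions, with the KICSTOR genes Kptn and Itfg2 at -0.64 ± 0.08 and 0.39 ± 0.07 and the GATOR1 gene Depdc5 at 0.48 ± 0.06. Nprl3 (-0.27, with 17.7% of its exon bases shared) also fell, and Nprl2 (-0.07) did not pass. In GATOR2, which opposes GATOR1 and is held by sestrins, 2 of 5 rose and 2 fell, with Seh1l at 0.60 ± 0.03, Sec13 at -0.33 ± 0.03 and Wdr24 at 0.33 ± 0.05. Mios (-0.26) also fell and Wdr59 (-0.08) did not pass, though it did under quantile normalisation (adjusted p = 0.023, limma) and without PC sg5 replicate 1 (0.0475). Seh1l and Sec13 also encode parts of the nuclear pore. The adjusted p-values of the 9 genes given with an SE were between 8.96e-14 and 0.00016 by limma.

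In the list of amino acid sensors and their relatives outside the set, 4 of 5 genes fell and 0 rose. This makes 80.0% called, where 67.9% of all genes tested were called and 33.6% were lower. Besides Sesn3 and Sesn1, Castor2, a relative of the cytosolic arginine sensor gene Castor1, fell by 0.56 ± 0.06 (SE) on the log2 scale. Bmt2, which encodes the methionine sensor SAMTOR, fell by 0.26, and Castor1 (-0.29) did not pass, though it did without the intensity trend (adjusted p = 0.00288, limma). In the list of the TSC complex and Rheb, 2 of 5 rose and 1 fell. Tsc2, the GTPase-activating subunit that switches Rheb off, fell by 0.41 ± 0.03, and the log2 fold changes of Rheb and its relative Rhebl1 were 0.20 ± 0.03 and 0.52 ± 0.09. Tsc1 (0.00) and Tbc1d7 (-0.15) did not pass. Of the exon bases of Rhebl1, 18.0% are shared with other genes. The adjusted p-values of Castor2, Tsc2, Rheb and Rhebl1 by limma were at most 1.72e-05.

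Among mTORC1 subunits 3 of 5 rose and 2 fell. Deptor, an inhibitory subunit, averaged 1029 ± 67.8 normalised counts in the PC libraries (SD, n = 4) and 2189 ± 3.40 in the control (SD, n = 2), a log2 fold change of -1.09 ± 0.06 (SE) with a limma adjusted p of 6.72e-13. Mlst8 and the inhibitory subunit gene Akt1s1 rose by 0.33 ± 0.06 and 0.22 ± 0.03, with overlap over 22.5% of the exon bases of Mlst8. Rptor (0.21) also rose, and Mtor, the kinase itself, fell by 0.21. Among mTORC1 substrates 1 of 5 rose and 2 fell. Eif4ebp1, the translation repressor 4E-BP1, rose to 13608 ± 119 normalised counts in the PC libraries (SD, n = 4), against 6938 ± 285 in the control (SD, n = 2), a log2 fold change of 0.97 ± 0.03 with a limma adjusted p of 1.12e-17. Ulk1, the kinase that starts autophagy, fell by 0.17 ± 0.04, and Rps6kb1 (0.04) and Eif4ebp2 (0.01) did not pass. The S6 kinase gene Rps6kb2 fell by 0.14 ± 0.06 with a limma adjusted p of 0.0364 and overlap over 23.7% of its exon bases. That call was lost with DESeq2 (adjusted p = 0.0833) and without control replicate 1 (0.25), control replicate 2 (0.0677), PC sg2 replicate 1 (0.0544), PC sg2 replicate 2 (0.0664) or PC sg5 replicate 2 (0.065).

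In the list of other brakes and the energy sensor AMPK, 2 of 8 rose and 3 fell. Prkaa2, which encodes the alpha2 catalytic subunit of AMPK, had 110 and 149 normalised counts with PC sg2, 84.0 and 122 with PC sg5, and 14.2 and 10.9 in the control. All PC libraries were far above both controls, though the PC libraries spread widely. The log2 fold change was 3.10 ± 0.27 (SE) with a limma adjusted p of 9.86e-10. Its regulatory partner Prkag2 fell by 0.38 ± 0.10, with an adjusted p of 0.00146 by limma and overlap over 14.5% of its exon bases. Prkag1 fell by 0.33, with overlap over 43.7% of its exon bases. Prkab1 (0.19) passed too, a call lost without control replicate 1 (0.12, adjusted p = 0.12, limma) and without the intensity trend (adjusted p = 0.0501). Prkaa1 (0.06), Prkab2 (-0.12) and Stk11 (0.06) did not pass, though Prkab2 did without PC sg2 replicate 2 (adjusted p = 0.0477, limma).

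Known targets of TFEB and TFE3 outside the set were mostly higher. Of 22 lysosomal and related genes in that list 17 rose, 4 fell and 1 did not pass, or 95.5% called, beside 67.9% of all genes tested. Their median log2 fold change was 0.37. This list was chosen with earlier results of these data known, so its split is a description and not independent evidence. Ppargc1a, the coactivator PGC-1alpha, averaged 408 ± 28.2 normalised counts in the PC libraries (SD, n = 4) and 173 ± 21.6 in the control (SD, n = 2), a log2 fold change of 1.24 ± 0.11 (SE) with a limma adjusted p of 2.14e-09. Sqstm1, the autophagy receptor p62, rose by 1.21 ± 0.02, with overlap over 17.3% of its exon bases, and Atp6v1c1, a subunit of the lysosomal proton pump, by 1.10 ± 0.03. The 4 that fell, named after their values were seen, were the lysosomal enzyme gene Naglu (-0.62 ± 0.05), Map1lc3b (-0.22 ± 0.03), Psap (-0.17 ± 0.02) and Ctsd (-0.07 ± 0.03), all with an adjusted p of at most 0.0266 by limma. Ctsd shares 34.4% of its exon bases with other genes, was 0.02 under quantile normalisation, and lost its call without the intensity trend (adjusted p = 0.183) and without control replicate 2 (0.29), PC sg2 replicate 2 (0.0942) or PC sg5 replicate 1 (0.0502) in limma. Psap was -0.01 and did not pass under quantile normalisation. The 1 gene that did not pass was Neu1 (0.10), which did pass without PC sg2 replicate 2 (adjusted p = 0.045, limma) or PC sg5 replicate 1 (0.0365). Some of these targets, Sqstm1 among them, are also known to respond to other factors.

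**Figure D5:**
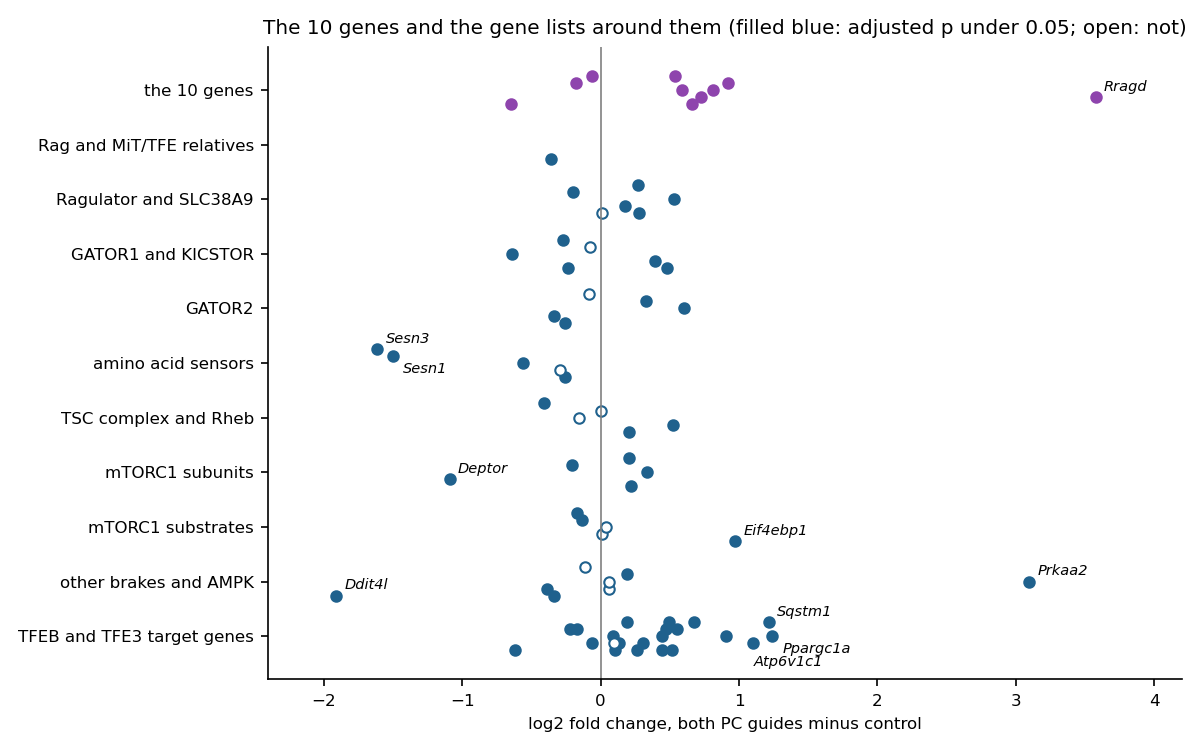
Log2 fold change of both PC guides against control (x axis) of the 10 genes (purple, no test) and of genes in 10 lists around them (blue, y axis). Filled blue points had a limma adjusted p under 0.05 and open points did not, and genes past 0.95 in size are named. Prkaa2 at 3.10 lies nearest to Rragd at 3.58, and Ddit4l, Sesn3, Sesn1 and Deptor lie at the low end.

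The genes with the profile most like each of 3 members were found by distance over the 6 libraries, on log2 values centred on each gene's control mean, among 16526 genes. Nearest to Rragd were the stress transcription factor gene Atf3 (distance 0.286), the growth arrest gene Gadd45a (0.344) and Dnah10 (0.506). Dnah10 was the closest of these in level, averaging 391 ± 41.5 normalised counts in the PC libraries (SD, n = 4) and 35.3 ± 1.38 in the control (SD, n = 2). Nearest to Sesn2 were Dph5 (0.0463), Fitm2 (0.0477) and Polr1d (0.0512), and nearest to Ddit4 were Tspan3 (0.0570), the ATP citrate lyase gene Acly (0.0672) and Heg1 (0.0684). The 6 libraries fall into PC and control libraries, so a small distance says mainly that 2 genes differ by a like amount between them.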

How the data were processed

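The deposited values are a signal per gene: read counts that the authors scaled by 1 size factor a library (normalised counts), in 1 table. Per the submitters' processing notes the tools were bcl2fastq 2.17, Trimmomatic, STAR, featureCounts and DESeq2, with build GRCm38. Settings, annotation and strandedness were not given in the sources used here. In each library 100% of values above 0 were whole multiples of 1 step (tolerance 0.01), so whole reads were recovered, with a 3-read floor of 2.18 to 6.41 normalised counts. The lowest total for any listed gene was 61 reads. Symbols, positions and exon lengths came from GENCODE M21 by exact gene ID (16491 of 16540 matched), and promoters from RefSeq GRCm38.p6.

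Values were tested as log2(normalised count + 1) with limma 3.58.1 (R 4.3.3). One model held 3 groups, with an intensity trend. Tests were two-sided, with Benjamini-Hochberg adjusted p over the 16526 genes that reached 10 normalised counts in 2 or more libraries. Adjusted p under 0.05 was the threshold. The fit was tested on simulated data. The model had 3 residual degrees of freedom. Limma added a median of 17.3 by sharing the spread across genes, so its p-values and intervals rest mostly on that sharing. Levels per kb divide by the union of a gene's exons. Alternatives included the edgeR 4.0.16 quasi-likelihood test on recovered reads, which called 11424 genes for both guides against control where limma called 11222, and DESeq2 1.42.0.

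The members and gene lists were chosen with earlier results of these data known. The text names the 10 members, Pcx, the relatives of the members, up to 3 genes per list with the largest change past the threshold, the remaining genes behind small counts, and the 3 nearest profiles of Rragd, Sesn2 and Ddit4. The share of Rraga in Rraga and Rragb was not computed because Rragb was not among the listed genes. The result of 1 pathway gene is not reported here by name.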

Additional observations from a re-analysis of the deposited data

Results flagged for a closer look

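Pcx, the gene the PC guides are named after, differed between PC sg5 and PC sg2 by 1.05 on the log2 scale. Its differences from the shared control thus also differed. An effect of the guide and one of its uncloned pool of cells cannot be told apart here. Pcx was higher with PC sg5 in 2 of 2 libraries, with a limma adjusted p of 6.60e-07, or 0.328 without the intensity trend. None of Rragd, Rragc, Rraga, Flcn, Fnip1, Fnip2, Tfeb, Tfe3, Sesn2 or Ddit4 passed the threshold in the same test. Over all genes 0.242% passed, 40 of 16526, so a set this small would be likely to hold no call. The largest absolute difference among the genes of the set was 0.117 on the log2 scale. Groups of 2 libraries are too small to look for single libraries that stand apart.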

How the results depend on the processing

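The log2 differences of the 10 genes from the control kept their sign under the 16 alternatives run, except that of Tfeb under quantile normalisation (0.10). Rragd ranged from 3.39 to 3.73, Fnip2 from 0.89 to 0.95, Sesn2 from 0.78 to 0.84 and Ddit4 from -0.70 to -0.59. The number of genes past the threshold for PC sg5 against PC sg2 was 65 with a pseudocount of 5, 65 where the mean had to reach 50 normalised counts, 68 with edgeR, 91 with DESeq2, and 10 to 216 when single libraries were left out. Without the intensity trend limma called 0, with 1241 genes at an unadjusted p under 0.05. With the replicate block the count was 160, but numbers in the labels do not pair these libraries (correlations of deviations of 0.03, -0.02 and 0.03), so they share only a number. The block ended no call among the named genes, and Neu1 passed under it (0.10). Sesn3 passed for PC sg5 against PC sg2 with DESeq2 (-0.15), the replicate block (-0.15) and without PC sg5 replicate 1 (-0.20), and Pcx did not pass without the intensity trend (adjusted p = 0.328, limma). In the comparison of the PC guides, DESeq2 left the adjusted p as NA for 61 named genes, Pcx among them. Against control, Ctsd turned to 0.0243 under quantile normalisation. Over Pcx and the pathway and target genes against control, 1071 gene and alternative pairs kept direction and call, 24 lost the call, 8 gained one and 1, that of Ctsd, turned. The causes were not tested. Counts of pathway genes and of TFEB and TFE3 targets past the threshold stayed between 33 and 36 and between 17 and 22. With the longest transcript in place of all exons, Sesn2 was 65.1% of the sestrin sum in the PC libraries and 26.1% in the control, and Tfeb 15.6% of its family in the PC libraries, against 9.94% with all exons. Depth limits Rragd, with 33 and 37 reads in the controls, and PC sg5 replicate 2, the shallowest library.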
